A study of Homo sapiens with 2 samples.

Results

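Lysosomes break down proteins, glycans and lipids with acid hydrolases, and the vacuolar proton pump keeps them acidic. Cathepsins are their proteases, glycosidases and sulfatases remove sugars and sulfate groups, and membrane proteins such as LAMP1 and LAMP2 line the compartment. MITF, TFEB and TFE3 are related basic helix-loop-helix leucine zipper transcription factors of the MITF-TFE family. They bind E-boxes, among them the longer CLEAR element found upstream of many lysosomal genes, and are held in the cytoplasm when mTORC1 is active. Cathepsin K and legumain are also known for cleaving matrix or for activating other cathepsins, and mesenchymal stromal cells make and turn over much collagen.

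The genes described here are 41 genes of this system, taken from a list of names. The list was chosen with earlier results of these data known, so comparisons with all genes below are a description. All 41 genes were among the 38606 genes of the deposited matrix. They are 13 cathepsins and other peptidases, 8 glycosidases, 4 sulfatases, 5 lipid hydrolases or saposin precursors, 4 membrane proteins, 4 proteins of the proton pump and the 3 MITF-TFE factors. They were measured by droplet single-cell RNA sequencing in mesenchymal stem cells of adipose origin from a commercial supplier. One culture received transforming growth factor beta 1 (TGFB1), a secreted factor that activates fibroblasts, at 10 ng/mL for 24 h, and the other was left untreated. Both cultures had first been grown to 90% confluence and starved overnight, and the cells were detached with trypsin and frozen before sequencing. The labels name no donor and give 1 library per condition, so each difference below is one between 2 libraries, with no replicate check and no test of the treatment.

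The depth was 208991941 unique molecular identifiers (UMIs) from 12555 cells in the TGFB1 library, with 15134 UMIs in the median cell. In the untreated library it was 169011524 UMIs from 8101 cells, and 19249 UMIs in the median cell. The 2 libraries shared 18 cell barcodes. UMIs were summed over the cells of a library and scaled to the library total as CPM, and ratios are TGFB1 over untreated. Intervals are exact 95% intervals and cover counting error only. Ratios of these sums mix the level within cells with the make-up of the library, which cannot be told apart from the sums alone. A gene counted as measured from 5 CPM in either library and as higher or lower from 1.5-fold.

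Both libraries carried the mesenchymal markers, but ENG only near the 5 CPM minimum, at 7.85 CPM with TGFB1 and 6.67 CPM untreated. An ENG UMI was found in 6.09% of all TGFB1 cells and 5.21% of all untreated cells. All 10 markers were measured and their summed level was 25708 CPM in the TGFB1 library and 26616 CPM in the untreated library. COL1A1 and COL1A2, the chains of type I collagen, had ratios of 1.37 and 1.20 and make up most of that sum. DCN, PDGFRA, LUM, NT5E and VIM were at least 1.5-fold lower with TGFB1, with ratios of 0.384, 0.452, 0.491, 0.546 and 0.627, and the median log2 ratio of the 10 markers was -0.53. Their part in the differences of the lysosomal genes was not tested. None of the 12 macrophage and leukocyte markers, which label cells rich in lysosomal proteases, reached 5 CPM. They summed to 4.22 CPM with TGFB1 and 4.51 CPM untreated, ranged over clusters from 2.28 to 5.37 CPM and from 4.17 to 7.11 CPM in the TGFB1 and the untreated library, and C1QA and C1QB had no UMI in either. The 6 osteoclast markers summed to 0.522 CPM with TGFB1 and 0.740 CPM untreated.

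The short windows around the transcription starts are shown first, since the MITF-TFE factors act through motifs there. RefSeq windows of GRCh38.p14, from 250 bases before to 50 bases after a start, were found for 27 of the 41 genes, with 35 windows in all. Those printed, 5′ to 3′ on the strand of the gene, are the 3 factors, the 2 smallest and the 2 largest ratios among hydrolases and membrane proteins at 20 CPM or more that had a window, and the 2 genes that hold the 10-base CLEAR element. The last 2 were chosen by motif after values were known. Where a gene had several windows, the one nearest the 5′ end of its GENCODE 29 gene is printed, and the counts do not tell which start was used. LIPA also has windows at chr10:89342640-89342939 and chr10:89251726-89252025, far downstream of the one printed. Capitals mark CACGTG, the palindromic E-box core.
MITF, chr3:69739214-69739513, plus strand: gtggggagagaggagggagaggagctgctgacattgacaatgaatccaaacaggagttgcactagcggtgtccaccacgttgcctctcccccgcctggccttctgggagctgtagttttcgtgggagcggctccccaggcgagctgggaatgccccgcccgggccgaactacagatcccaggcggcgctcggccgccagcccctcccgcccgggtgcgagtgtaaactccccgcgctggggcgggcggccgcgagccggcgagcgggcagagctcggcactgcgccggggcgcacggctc
TFEB, chr6:41735559-41735858, minus strand: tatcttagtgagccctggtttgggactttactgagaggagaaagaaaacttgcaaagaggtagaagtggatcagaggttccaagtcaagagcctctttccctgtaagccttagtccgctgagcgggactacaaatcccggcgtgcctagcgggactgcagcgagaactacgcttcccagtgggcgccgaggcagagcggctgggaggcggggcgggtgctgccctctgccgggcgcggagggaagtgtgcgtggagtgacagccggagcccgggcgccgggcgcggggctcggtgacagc
TFE3, chrX:49043308-49043607, minus strand: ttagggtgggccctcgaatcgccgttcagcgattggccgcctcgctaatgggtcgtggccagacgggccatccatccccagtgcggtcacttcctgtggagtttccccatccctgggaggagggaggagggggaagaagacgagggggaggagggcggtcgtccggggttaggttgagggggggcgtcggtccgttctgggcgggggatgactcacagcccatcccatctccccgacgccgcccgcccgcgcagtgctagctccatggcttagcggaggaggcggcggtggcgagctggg
CTSC, chr11:88337687-88337986, minus strand: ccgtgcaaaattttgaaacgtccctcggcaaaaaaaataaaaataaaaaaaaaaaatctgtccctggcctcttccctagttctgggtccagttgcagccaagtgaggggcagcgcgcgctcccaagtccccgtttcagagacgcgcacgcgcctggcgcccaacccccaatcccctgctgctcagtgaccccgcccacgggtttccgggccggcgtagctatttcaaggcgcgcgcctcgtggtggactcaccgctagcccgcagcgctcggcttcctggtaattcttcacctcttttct
LIPA, chr10:89414630-89414929, minus strand: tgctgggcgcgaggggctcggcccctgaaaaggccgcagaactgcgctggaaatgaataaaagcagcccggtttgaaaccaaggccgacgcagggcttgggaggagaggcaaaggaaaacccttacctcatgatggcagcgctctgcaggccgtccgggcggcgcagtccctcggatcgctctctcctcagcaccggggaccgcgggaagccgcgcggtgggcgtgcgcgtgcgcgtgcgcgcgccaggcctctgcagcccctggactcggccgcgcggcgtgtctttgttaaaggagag
ARSB, chr5:78985909-78986208, minus strand: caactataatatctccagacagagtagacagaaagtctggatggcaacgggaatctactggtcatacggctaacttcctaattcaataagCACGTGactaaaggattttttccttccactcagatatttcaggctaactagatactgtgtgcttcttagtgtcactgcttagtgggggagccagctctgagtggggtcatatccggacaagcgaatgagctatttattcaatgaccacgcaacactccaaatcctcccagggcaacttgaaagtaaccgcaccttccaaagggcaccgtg
IDS, chrX:149505257-149505556, minus strand: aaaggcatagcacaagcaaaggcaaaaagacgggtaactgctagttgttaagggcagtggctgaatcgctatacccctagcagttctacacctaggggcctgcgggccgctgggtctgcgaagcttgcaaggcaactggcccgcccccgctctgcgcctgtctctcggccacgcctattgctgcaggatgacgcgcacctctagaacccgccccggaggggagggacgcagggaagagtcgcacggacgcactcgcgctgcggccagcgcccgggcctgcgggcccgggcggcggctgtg
GAA, chr17:80101331-80101630, plus strand: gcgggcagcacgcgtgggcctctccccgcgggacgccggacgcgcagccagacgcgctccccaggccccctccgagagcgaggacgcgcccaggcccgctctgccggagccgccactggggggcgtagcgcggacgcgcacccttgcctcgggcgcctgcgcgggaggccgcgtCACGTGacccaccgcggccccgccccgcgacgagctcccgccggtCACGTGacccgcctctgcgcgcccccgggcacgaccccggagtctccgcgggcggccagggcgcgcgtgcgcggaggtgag
MCOLN1, chr19:7522374-7522673, plus strand: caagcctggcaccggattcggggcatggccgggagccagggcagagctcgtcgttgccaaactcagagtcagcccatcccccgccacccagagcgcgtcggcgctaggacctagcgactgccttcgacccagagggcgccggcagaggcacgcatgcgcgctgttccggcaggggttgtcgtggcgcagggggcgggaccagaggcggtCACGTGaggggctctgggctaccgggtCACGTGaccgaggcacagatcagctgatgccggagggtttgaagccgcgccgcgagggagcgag

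CACGTG was searched on both strands, which are the same for a palindrome. It occurred in 8 of the 27 genes, against 8.77% of the 27305 genes in the RefSeq table. TCACGTGA, which contains it, occurred in 5 of the 27 genes, against 1.18% of all genes. The 10-base CLEAR element, which is that 8-base form with G before it and C after it, occurred in GAA and MCOLN1, against 0.421% of all genes. TCATGTGA, an M-box form of the E-box searched on both strands, was found in PPT1 and TPP1, against 1.24% of all genes. The window printed for MITF and those of TFEB and TFE3 held no CACGTG, nor did any other window of MITF or TFEB. GAA, the acid alpha-glucosidase that degrades glycogen, holds CACGTG at positions -76 and -31, counted from the start base at 0 to the first base of the motif. MCOLN1, a calcium channel of the lysosomal membrane, holds it at positions -41 and -14. LAMP1 holds 6 copies, at positions -192, -176, -159, -142, -28 and -1, the most among these genes.

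**Figure D1:**
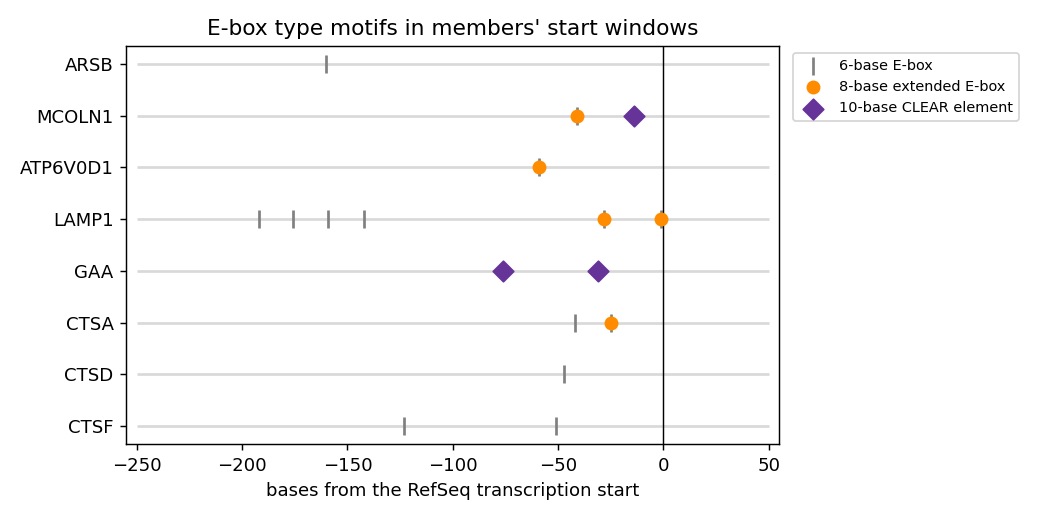
Position of E-box type motifs, in bases from the RefSeq transcription start (0), in the 8 genes whose window holds CACGTG. Ticks mark the 6-base core, circles the 8-base form and diamonds the 10-base CLEAR element; genes run from the lowest ratio (CTSF, bottom) to the highest (ARSB, top), and LAMP1 has the most copies, 6.

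A match says only that these letters are present. The 8 genes with CACGTG had log2 ratios from -0.77 to 0.24 with a median of -0.32, and 1 of them, CTSF, was at least 1.5-fold lower. The other 17 measured genes with a window had log2 ratios from -1.73 to 0.19 with a median of -0.47, and 6 of them were at least 1.5-fold lower. The ranges overlap along most of their length. Over all 10928 measured genes, 14.2% were at least 1.5-fold lower and the median log2 ratio was -0.10. Of the genes with the largest differences described below, neither CTSC nor LIPA held CACGTG in any window.

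Across the lysosomal genes the TGFB1 library was mostly the lower one, with MITF, CTSC, LIPA and CTSL showing the widest gaps and LGMN the opposite direction. Of the 41 genes, 38 were measured; CTSH, CTSS and TFEB were below 5 CPM in both libraries. Of the 38 measured genes, 10 were at least 1.5-fold lower with TGFB1, against 14.2% of all 10928 genes measured, and 1 was at least 1.5-fold higher, against 8.45% of all genes. The ratio was below 1 for 32 of the 38 genes (84.2%), against 61.1% of all genes. The median log2 ratio was -0.37, against -0.10 over all genes. Summed over the 41 genes, the level was 2243 CPM with TGFB1 and 2777 CPM untreated, a ratio of 0.808. The lower genes were MITF, CTSC, CTSF, CTSK, CTSL, CTSO, LIPA, PPT1, GLA and SGSH, and the higher gene was LGMN.

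**Figure D2:**
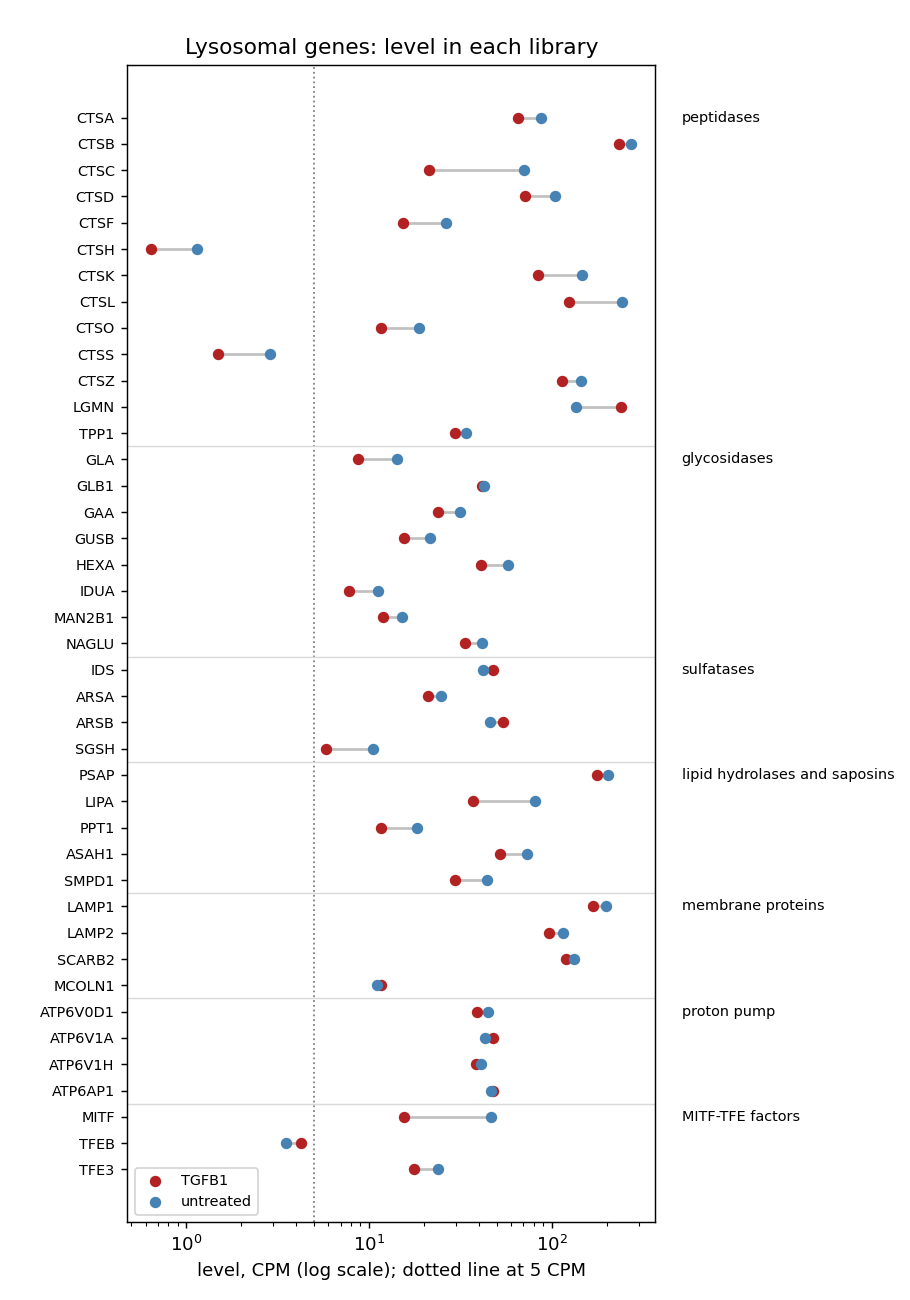
Level of each of the 41 genes in CPM (log axis) in the TGFB1 library (red) and the untreated library (blue), grouped by role; the dotted line is at 5 CPM. Most red points lie left of their blue point, with long gaps for CTSC (21.4 and 70.9 CPM) and MITF (15.5 and 46.5 CPM), and LGMN lies the other way (240.0 and 135.6 CPM).

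The 3 transcription factors differed from each other. MITF, best known as the regulator of melanocyte and osteoclast genes, had 3236 UMIs with TGFB1 and 7860 UMIs untreated, or 15.5 CPM against 46.5 CPM. Its ratio was 0.333 (0.319 to 0.347), and 2.29% of all measured genes had a lower ratio. The gene lies on the plus strand of chromosome 3 from 69739435 to 69968337 (GENCODE 29, GRCh38), and counts per gene do not tell its several starts apart. TFE3, a ubiquitous member of the family, stood at 17.7 CPM with TGFB1 and 23.9 CPM untreated, a ratio of 0.739 (0.706 to 0.773), within 1.5-fold. TFEB, the member most often tied to lysosome formation, stood at 4.24 CPM (886 UMIs) with TGFB1 and 3.52 CPM (595 UMIs) untreated, a ratio of 1.20 (1.08 to 1.34) below the level counted as measured. Summed, the 3 factors came to 37.4 CPM with TGFB1 and 73.9 CPM untreated.

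The 9 melanocyte and melanoma markers, some of which, such as TYR, MITF activates in melanocytes, were each below 5 CPM. They summed to 2.72 CPM with TGFB1 and 1.79 CPM untreated, and S100B had no UMI. The tyrosinase gene TYR had 1.18 CPM with TGFB1 and 0.284 CPM untreated, which makes up most of the difference between the sums. The other markers went both ways. MLANA, TYRP1 and DCT had ratios above 1, and PMEL, SOX10, PAX3 and MIA had ratios below 1. The part of these markers in the level of MITF was not tested.

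To set shares of cells beside each other, each cell was thinned to 7500 UMIs, which kept 9330 TGFB1 and 7646 untreated cells and left out 3225 and 455. A MITF UMI was then found in 9.92% of TGFB1 cells (9.33 to 10.5) and in 26.1% of untreated cells (25.1 to 27.1). Without thinning the shares were 19.7% with TGFB1 and 48.8% untreated. TFE3 was found in 12.1% and TFEB in 2.79% of thinned TGFB1 cells, against 16.2% and 2.41% of thinned untreated cells. PTPRC, a leukocyte gene that these cells should lack, had a UMI in 0.236% of thinned TGFB1 cells and 0.131% of thinned untreated cells.

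Among the 13 peptidases, 11 were measured, 5 were lower (14.2% of all genes) and 1 was higher (8.45% of all genes), and the median log2 ratio was -0.54. CTSC, a dipeptidyl peptidase that activates serine proteases of granules, had the lowest ratio of the 38 measured genes. It stood at 21.4 CPM with TGFB1 and 70.9 CPM untreated, a ratio of 0.302 (0.292 to 0.313). In GENCODE 29 the gene spans 88293592 to 88337787 of chromosome 11, minus strand. After thinning it was found in 13.4% of TGFB1 cells and 33.9% of untreated cells. CTSL, a broad cysteine endopeptidase, stood at 124.7 CPM with TGFB1 and 243.6 CPM untreated, a ratio of 0.512 (0.504 to 0.520). Its gene on chromosome 9, from 87725519 to 87731393, has annotated pseudogenes, and the sources used here do not say how reads shared with them were assigned. CTSK, the collagen-cleaving cathepsin of osteoclasts and fibroblasts, stood at 84.3 CPM with TGFB1 and 146.7 CPM untreated, a ratio of 0.574 (0.563 to 0.586).

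CTSF and CTSO, cysteine cathepsins that are less studied, stood at 15.4 and 11.6 CPM with TGFB1, against 26.4 and 18.8 CPM untreated. The cathepsins with smaller differences were CTSD, the main aspartic protease (71.98 CPM with TGFB1 and 104.8 CPM untreated, ratio 0.687), the carboxypeptidases CTSA (ratio 0.749) and CTSZ (ratio 0.791), and CTSB, which trims dipeptides from protein ends (234.6 CPM with TGFB1 and 272.8 CPM untreated, ratio 0.860). TPP1, a tripeptidyl peptidase, had a ratio of 0.863. CTSS and CTSH, cathepsins of antigen-presenting and epithelial cells, stayed under 5 CPM, at 1.498 and 0.646 CPM with TGFB1 and 2.87 and 1.15 CPM untreated.

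LGMN ran against the rest. Legumain, the asparaginyl endopeptidase that processes cathepsins into their mature chains, stood at 240.0 CPM with TGFB1 and 135.6 CPM untreated, a ratio of 1.77 (1.74 to 1.80). The gene spans 92703807 to 92748702 of chromosome 14, minus strand, and has 1 annotated pseudogene, LGMNP1. Of all measured genes, 94.9% had a lower ratio. After thinning, an LGMN UMI was found in 79.9% of TGFB1 cells and 56.1% of untreated cells, with a median of 2 UMIs in TGFB1 cells and 1 UMI in untreated cells.

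All 8 glycosidases were measured and had ratios below 1 by library total, against 61.1% of all genes. Their median log2 ratio was -0.43, against -0.10 over all genes. GLA, the alpha-galactosidase deficient in Fabry disease, was the one past 1.5-fold, at 8.71 CPM with TGFB1 and 14.3 CPM untreated (ratio 0.611). Of all genes, 14.2% were at least 1.5-fold lower. IDUA, HEXA and GUSB, which act on dermatan and heparan sulfate, on gangliosides and on glucuronides, had ratios of 0.694, 0.710 and 0.724. GAA, MAN2B1 and NAGLU, which degrade glycogen, mannose-rich glycans and heparan sulfate, had ratios of 0.759, 0.784 and 0.806. GLB1, the beta-galactosidase used as a senescence stain, was nearly level at 41.9 CPM with TGFB1 and 42.5 CPM untreated, and its interval (0.956 to 1.017) spanned 1. Its sign changed under other scalings, while the other 7 glycosidases kept a ratio below 1. GUSB and IDS, like CTSL, have annotated pseudogenes.

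The 4 sulfatases split. ARSB, which removes sulfate from chondroitin and dermatan sulfate, stood at 53.9 CPM with TGFB1 and 45.8 CPM untreated (ratio 1.18, 1.14 to 1.21). IDS, which acts on dermatan and heparan sulfate, stood at 48.0 CPM with TGFB1 and 42.1 CPM untreated (ratio 1.14). ARSA, the sulfatide hydrolase, had a ratio of 0.842. SGSH, a heparan sulfate sulfamidase, stood at 5.86 CPM with TGFB1 and 10.6 CPM untreated (ratio 0.554, 0.515 to 0.596). SLC26A11, which overlaps SGSH on the other strand, stood at 5.45 CPM with TGFB1 and 6.75 CPM untreated, and its part in the SGSH value was not tested.

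All 5 lipid hydrolases and saposin precursors had ratios below 1, against 61.1% of all genes. Their median log2 ratio was -0.58, against -0.10 over all genes. LIPA, the acid lipase that frees cholesterol and fatty acids, stood at 37.0 CPM with TGFB1 and 81.5 CPM untreated, a ratio of 0.455 (0.442 to 0.468). In GENCODE 29 its span on chromosome 10, 89213569 to 89414557 on the minus strand, covers IFIT1, IFIT2 and IFIT3 on the other strand. These interferon-induced genes had ratios of 0.113, 0.116 and 0.101, and the sources used here do not say whether counting used the strand, so their part in the LIPA value was not tested. PPT1, a palmitoyl thioesterase, stood at 11.7 CPM with TGFB1 and 18.5 CPM untreated (ratio 0.634), and CAP1, which overlaps it on the other strand, had a ratio of 2.09. SMPD1, the acid sphingomyelinase, lay just inside 1.5-fold at 29.6 CPM with TGFB1 and 44.2 CPM untreated (ratio 0.669). ASAH1, the acid ceramidase, had a ratio of 0.716. PSAP, the precursor of the saposins, had a ratio of 0.872, at 177.3 CPM with TGFB1 and 203.3 CPM untreated.

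None of the 4 membrane and 4 pump genes passed 1.5-fold, where 8.45% of all genes were higher and 14.2% lower. LAMP1, LAMP2 and SCARB2, the main membrane glycoproteins of lysosomes, had ratios of 0.851, 0.838 and 0.896. MCOLN1 stood at 11.6 CPM with TGFB1 and 11.1 CPM untreated (ratio 1.04, 0.981 to 1.11). The 4 pump genes ranged from a ratio of 0.870 for ATP6V0D1 to 1.11 for ATP6V1A, with ATP6V1H at 0.941 and ATP6AP1 at 1.03. ATP6V1A is the catalytic subunit, ATP6V1H a regulatory one, ATP6V0D1 part of the membrane sector and ATP6AP1 an accessory protein. SCARB2, MCOLN1, ATP6V1H and ATP6AP1 changed sign under at least 1 of the other settings tried, so no direction is given for them. The median log2 ratios of the membrane and pump genes were -0.20 and -0.02, against -0.10 over all genes, and the pump median changed sign under the TMM scaling (0.13) and the median-of-ratios scaling (0.17).

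**Figure D3:**
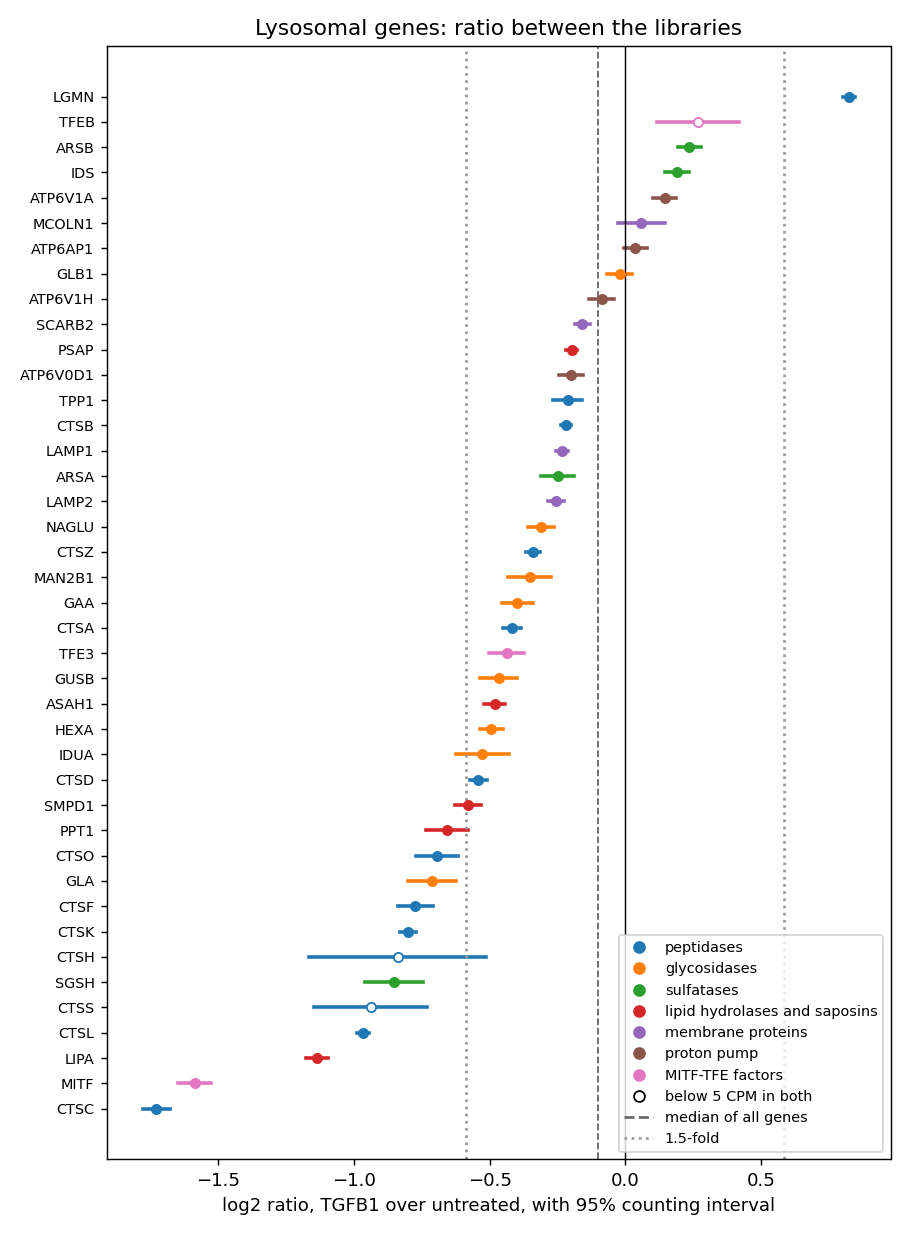
Log2 ratio of TGFB1 over untreated for the 41 genes, with 95% counting intervals as lines and colours by role. Dotted lines mark 1.5-fold and the dashed line the median of all measured genes (-0.10); open circles are genes below 5 CPM in both libraries. CTSC and MITF lie lowest, and LGMN alone lies right of the upper dotted line.

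Other genes of the same system were counted in lists, to be read against the 8.45% of all genes that were higher and the 14.2% that were lower. The list of other hydrolases, which also holds lysosomal proteins that are not hydrolases, had 27 measured genes. Of these, 3 were lower, a share no larger than that of all genes, and 0 higher, with a median log2 ratio of -0.39. The 3 were the carboxypeptidase SCPEP1 (30.6 CPM with TGFB1 and 51.1 CPM untreated), PCYOX1, a prenylcysteine oxidase, and NPC2, a carrier of cholesterol (159.0 CPM with TGFB1 and 239.6 CPM untreated). The next in size was DPP7, a dipeptidyl peptidase, with a ratio of 0.672. Of 20 other membrane proteins, 0 passed 1.5-fold in either direction and the median was -0.21. NPC1, the membrane partner of NPC2, lay just inside at 34.1 CPM with TGFB1 and 22.8 CPM untreated (ratio 1.49), while CD68, CD63 and TMEM192 had ratios of 0.677, 0.714 and 0.720. Of 13 genes for the delivery of enzymes to lysosomes, NAGPA, which uncovers the mannose 6-phosphate tag, was lower (6.91 CPM with TGFB1 and 11.9 CPM untreated), and 0 were higher; VPS26A, SUMF1 and SORT1 had ratios of 0.790, 0.811 and 1.22.

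The other pump subunits were mixed. Of 13 measured, 2 were higher (8.45% of all genes) and 1 lower (14.2% of all genes), 7 had a ratio above 1, and the median log2 ratio was 0.15. ATP6V0E1, ATP6V1F and ATP6AP2 were within 1.5-fold, with ratios of 0.873, 0.872 and 0.857. ATP6V1G1 stood at 423.2 CPM with TGFB1 and 241.1 CPM untreated (ratio 1.75, 1.73 to 1.78). ATP6V0B stood at 199.5 CPM with TGFB1 and 118.3 CPM untreated (ratio 1.69, 1.66 to 1.72). ATP6V0A2 had a ratio of 1.47, and ATP6V0E2, a subunit at 3.18 CPM with TGFB1 and 5.12 CPM untreated, was the lower one.

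Of the 12 genes listed as cystatins or other cathepsin inhibitors 4 were measured. Of these, 2 were higher, against 8.45% of all genes, and 0 lower, against 14.2% of all genes. CST6, cystatin M/E, an inhibitor of legumain and of cathepsin L, stood at 11.1 CPM with TGFB1 and 0.911 CPM untreated, a ratio of 12.2 (10.4 to 14.5). SERPINB6, an intracellular serpin, stood at 443.4 CPM with TGFB1 and 183.6 CPM untreated, a ratio of 2.42. Its action on the cathepsins described here was not tested. CST3 and CSTB, the cystatins C and B, had ratios of 0.790 and 0.716.

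Of 25 measured genes listed for the control of the MITF-TFE factors or for competition at E-boxes, 4 were higher (8.45% of all genes), 2 lower, a share below the 14.2% of all genes, and the median log2 ratio was -0.07. BHLHE40, a repressor that binds E-boxes, stood at 64.6 CPM with TGFB1 and 13.9 CPM untreated (ratio 4.65, 4.45 to 4.86). Its paralogue BHLHE41 stood at 13.3 CPM with TGFB1 and 6.72 CPM untreated (ratio 1.97). PPP3CA, the catalytic subunit of calcineurin, which dephosphorylates TFEB, had a ratio of 1.65, and FNIP2, a partner of folliculin, one of 1.51. FLCN, folliculin itself, was lower at 4.87 CPM with TGFB1 and 7.75 CPM untreated, as was LAMTOR4 of the Ragulator complex (ratio 0.633). Of 20 autophagy genes, 1 was higher and 1 lower, with a median of -0.06. SQSTM1, the cargo receptor p62, stood at 183.1 CPM with TGFB1 and 352.1 CPM untreated (ratio 0.520), and GABARAPL1, of the ATG8 family, at 67.7 CPM with TGFB1 and 40.9 CPM untreated (ratio 1.65). NBR1 and MAP1LC3A had ratios of 0.711 and 0.737.

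The authors' clusters, numbered 0 to 10, were formed on the cells of both libraries. Most are nearly confined to 1 library: clusters 0, 3, 4 and 5 held 5303, 2543, 2421 and 1218 TGFB1 cells and 16, 0, 11 and 6 untreated cells, while clusters 1, 2 and 6 held 56, 46 and 21 TGFB1 cells and 3687, 3094 and 842 untreated cells. Clusters 7 and 9 held 303 and 183 TGFB1 cells, and 274 and 108 untreated cells. Cells of cluster 5 were shallow, with a median of 2571 UMIs in the TGFB1 library. The genes described here may have helped to form the clusters, so levels by cluster are a description. With at least 50 cells of a library in a cluster, 9 TGFB1 and 5 untreated combinations remained, and for 40 of the 41 genes their ranges overlapped between the libraries. Over all 10928 measured genes the TGFB1 range lay wholly below the untreated one for 0.961% and wholly above it for 0.833%. The exception here was SGSH, at 4.09 to 9.60 CPM in TGFB1 clusters and 9.65 to 10.8 CPM in untreated clusters. The nearest ends were both in cluster 9, with 31 TGFB1 and 19 untreated UMIs. The ratio there was 0.995 (0.545 to 1.86), so the ends could not be told apart by counting error.

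MITF in the TGFB1 library was highest in cluster 1, at 45.7 CPM (34.0 to 60.03, 56 cells), followed by 27.9 CPM in cluster 7, 25.4 CPM in cluster 9 and 21.3 CPM in cluster 10, whose intervals overlap one another. The large TGFB1 clusters came lower, with 19.3 CPM in cluster 0, 12.2 CPM in cluster 3 and 9.79 CPM in cluster 4. Of these, cluster 0 could not be told from cluster 10 by counting error. In the untreated library MITF was highest in cluster 9, at 104.6 CPM (90.8 to 120.0), then in cluster 1, at 61.6 CPM (59.99 to 63.3). Untreated clusters 6, 7 and 2 had 33.3, 31.3 and 27.8 CPM, where cluster 7 could not be told from either neighbour by counting error. TFE3 varied less, from 12.2 to 25.1 CPM over TGFB1 clusters and from 20.4 to 26.5 CPM over untreated clusters. TFEB lay between 3.04 and 5.19 CPM in TGFB1 clusters and between 2.71 and 4.57 CPM in untreated clusters.

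CTSC ranged from 15.3 CPM in cluster 0 to 73.4 CPM in cluster 1 of the TGFB1 library, and from 18.3 CPM in cluster 7 to 126.6 CPM in cluster 6 of the untreated library. It was thus low in cluster 7 of both libraries (15.8 CPM with TGFB1). LGMN was highest in cluster 7 of both libraries, at 389.4 CPM (374.4 to 404.9) with TGFB1 and 389.0 CPM (374.4 to 404.1) untreated. Its level in cluster 10 of the TGFB1 library, 375.0 CPM (342.6 to 409.6), could not be told from that by counting error. It was lowest in cluster 1 of the TGFB1 library (115.5 CPM) and in cluster 6 of the untreated library (98.2 CPM). CTSL was highest in cluster 1 of the TGFB1 library (169.2 CPM) and in cluster 6 of the untreated library (347.1 CPM), and the 2 ranges over clusters met only between 151.0 and 169.2 CPM. LIPA was at 72.5 CPM in cluster 1 and at 23.2 to 43.3 CPM in the other TGFB1 clusters, against 61.2 to 90.4 CPM in the untreated clusters.

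**Figure D4:**
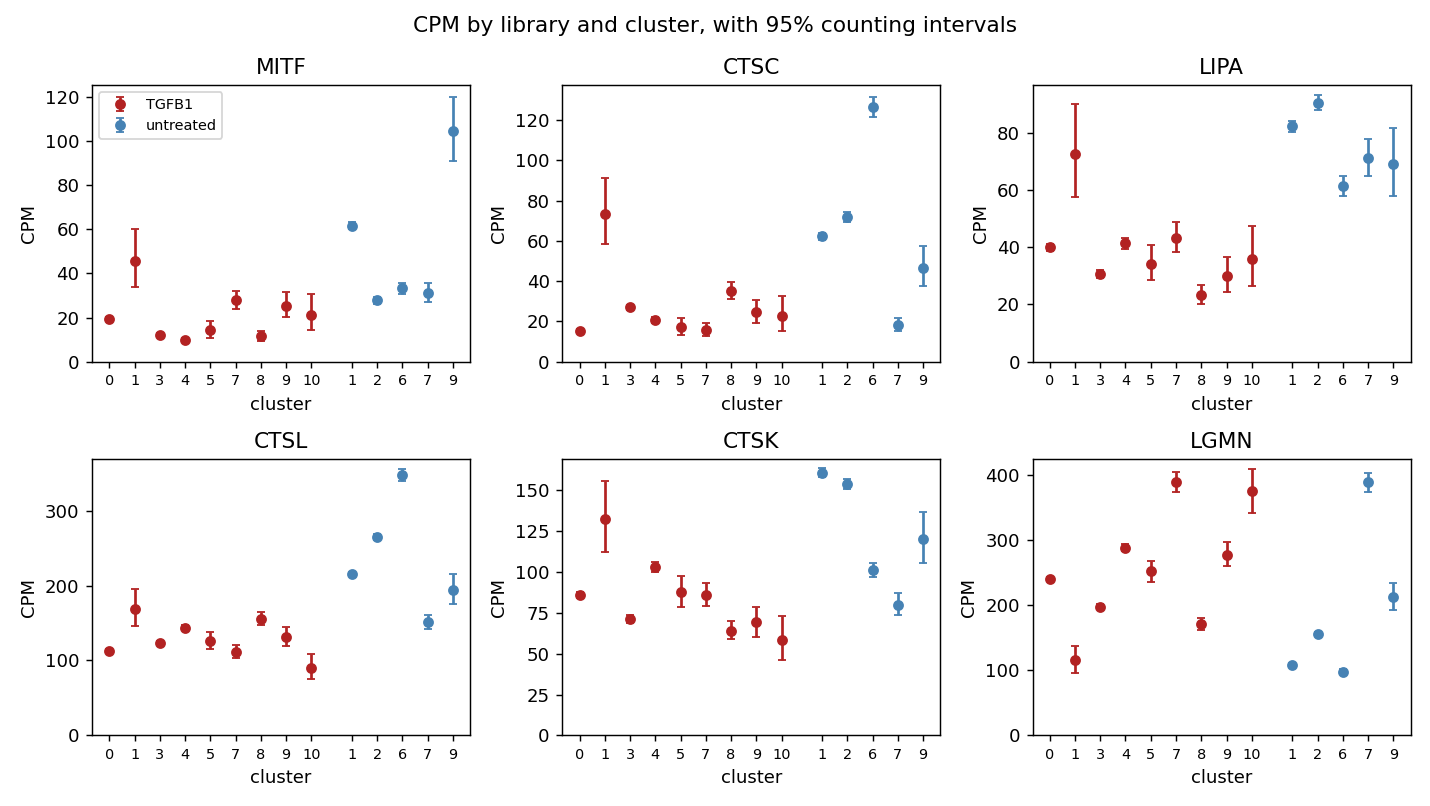
CPM of MITF, CTSC, LIPA, CTSL, CTSK and LGMN in each cluster with at least 50 cells of the library, TGFB1 clusters (red) left of untreated clusters (blue), with exact 95% Poisson intervals that cover counting error only. The 56 TGFB1 cells of cluster 1 stand close to the untreated cells of that cluster for CTSC (73.4 and 62.2 CPM) and LGMN (115.5 and 108.4 CPM), and LGMN in cluster 7 is level between the libraries (389.4 and 389.0 CPM). In cluster 1 the TGFB1 cells stand lower for MITF (45.7 and 61.6 CPM), CTSK (132.5 and 160.6 CPM) and CTSL (169.2 and 215.3 CPM).

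Many of the genes were lowest in the same few clusters. Of the 38 measured genes, 12 were lowest in cluster 8 and 9 in cluster 3 within the TGFB1 library (31.6% and 23.7%), against 7.96% and 5.22% of all measured genes. Within the untreated library 23 of the 38 were lowest in cluster 6 (60.5%), against 13.1% of all measured genes. The roles did not share 1 order: the summed peptidases of the untreated library were lowest in cluster 1 (1199 CPM), and the summed MITF-TFE factors were lowest in cluster 4 of the TGFB1 library (28.2 CPM) and cluster 2 of the untreated library (52.0 CPM). Summed over the 41 genes, the lowest levels were 1869 CPM in cluster 3 and 1879 CPM in cluster 8 of the TGFB1 library and 2494 CPM in cluster 6 of the untreated library. The highest sums were 2858 CPM in cluster 7 with TGFB1 and 3170 CPM in cluster 9 untreated. CTSC, CTSL, GLA, GUSB and PPT1 ran against this in the untreated library, where each was highest in cluster 6.

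**Figure D5:**
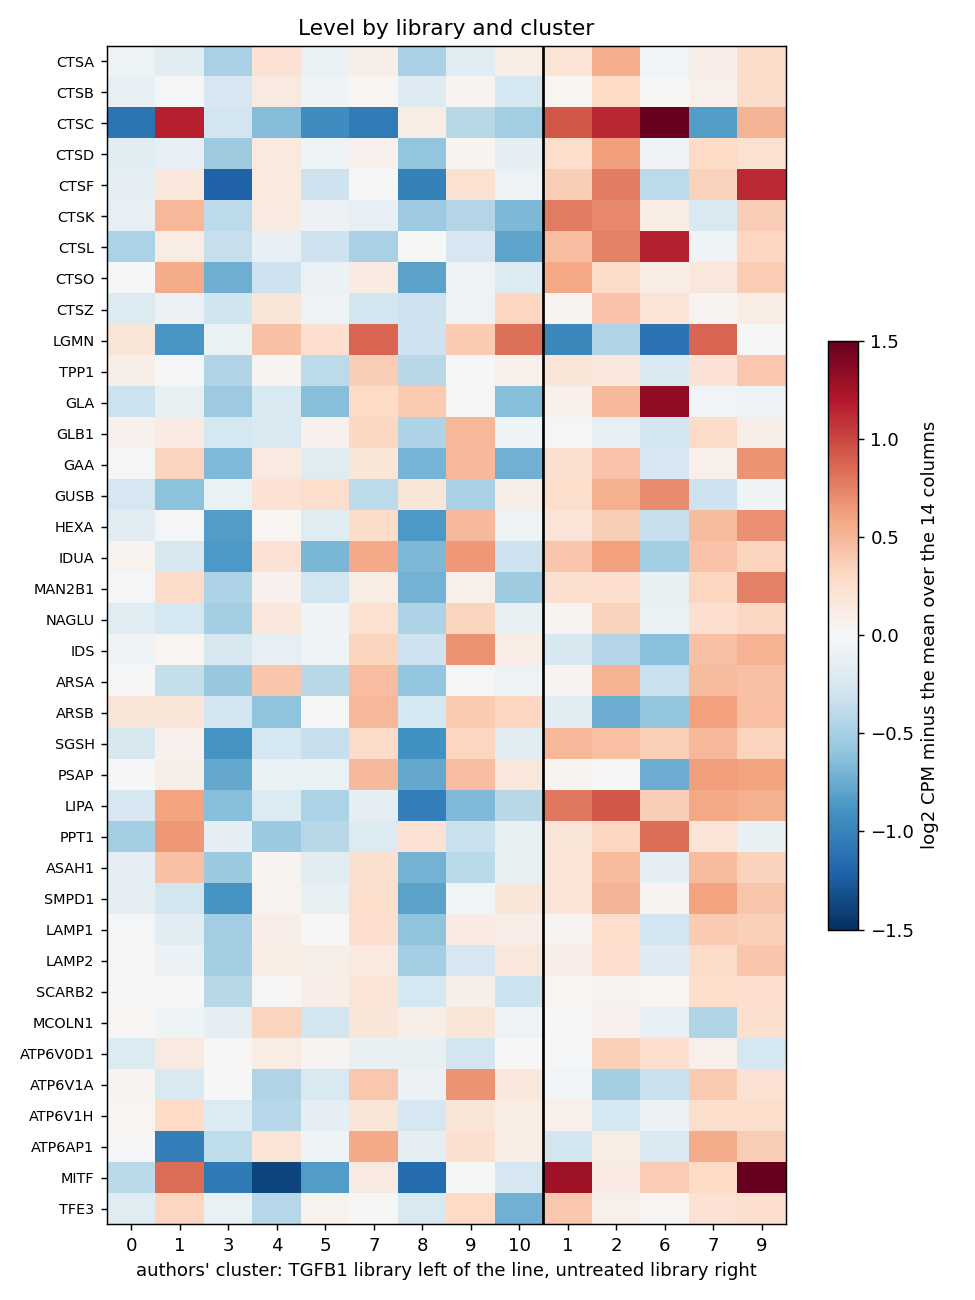
Level of the 38 measured genes (rows) by cluster (columns), as log2 CPM minus the mean of the row over the 14 columns, with the TGFB1 library left of the black line and the untreated library right of it. Columns 3 and 8 of the TGFB1 library are pale to deep blue (low) for most hydrolases, and MITF and CTSC span the widest range of colour.

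Clusters 1, 7 and 9 held at least 50 cells of each library and allow a comparison within a cluster. In cluster 7, 1 of 38 measured genes was higher, MCOLN1 (12.7 CPM with TGFB1 and 8.18 CPM untreated, ratio 1.55, 1.09 to 2.22), against 5.03% of all genes in that cluster. There 1 gene was lower, LIPA (43.3 CPM with TGFB1 and 71.1 CPM untreated, ratio 0.609), against 4.95% of all genes. The ratios in cluster 7 were 0.892 (0.728 to 1.09) for MITF, 0.864 (0.659 to 1.13) for CTSC, 1.08 (0.956 to 1.21) for CTSK, 0.740 (0.672 to 0.814) for CTSL and 1.00 (0.948 to 1.06) for LGMN. The intervals of 4 of these 5 span 1, with CTSL the exception.

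In cluster 9, 8 of 38 genes were lower, a share not far from the 17.8% of all genes in that cluster, and 0 were higher, against 9.69%. MITF stood there at 25.4 CPM with TGFB1 and 104.6 CPM untreated, a ratio of 0.243 (0.186 to 0.315), from 82 and 206 UMIs. The other lower genes were CTSC (ratio 0.524), CTSF, CTSK (0.574), MAN2B1, LIPA (0.435), ASAH1 and LAMP2. LGMN had a ratio of 1.31 (1.16 to 1.47), and CTSL, within 1.5-fold, one of 0.675 (0.587 to 0.777). In cluster 1, where 56 TGFB1 cells stood against 3687 untreated cells, 3 of 38 genes were lower, a share near the 6.87% of all genes, and 0 were higher, against 6.42%. The 3 were GUSB (12 TGFB1 UMIs, ratio 0.543, 0.280 to 0.951), IDUA (8 TGFB1 UMIs, ratio 0.632, 0.272 to 1.25, an interval that spans 1) and ATP6AP1 (27 TGFB1 UMIs, ratio 0.594, 0.391 to 0.866). The ratios in cluster 1 were 0.741 (0.551 to 0.975) for MITF, 1.18 (0.937 to 1.47) for CTSC, 0.883 (0.7003 to 1.099) for LIPA and 1.07 (0.889 to 1.27) for LGMN. CTSK and CTSL had ratios of 0.825 (0.697 to 0.970) and 0.786 (0.677 to 0.907) there, with intervals below 1. The median log2 ratio over the measured genes was -0.18 in cluster 1, -0.11 in cluster 7 and -0.20 in cluster 9, against 0.0022, -0.02 and -0.08 over all genes in those clusters. How the ratios differ between clusters was not tested.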

How the data were processed

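Single-cell data were used from the matrix deposited by the authors, which holds raw UMI counts for 38606 genes and 20656 cells. A deposited table adds, for each cell, its count totals, the percent of mitochondrial UMIs, its library and its cluster (resolution 0.4). Both gave the same UMI total for 20656 cells. Cell Ranger 9.0.1, Seurat and GRCh38 are named, per the submitters' processing notes. The annotation, use of strand and treatment of doublets are not given in the sources used here, and no doublets were removed. The lowest gene count was 502 and the highest mitochondrial share 5.00%.

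UMIs were summed by library, or by library and cluster, and scaled to CPM by all UMIs of that sum. Ratios carry exact conditional binomial intervals, sums exact Poisson ones and shares exact Clopper-Pearson ones. With 1 library per group no p-value was computed, and an interval compares libraries, not conditions. A count of 0 allows 3 UMIs, or 0.0144 CPM with TGFB1 and 0.0178 CPM untreated. The members and lists were chosen with earlier results of these data known. Named genes were all 41 members, up to 4 genes of each other list by absolute log2 ratio, and those past 1.5-fold in a direction in which 5 or fewer of the list were. ATP6V0E1, ATP6V1F and ATP6AP2 were named after their values were seen. For simulated Poisson counts of TGFB1 over untreated over 10928 genes, 100 of 100 doubled and 100 of 100 halved genes were called, with 0 unchanged ones. Of the intervals, 95.2% held the simulated ratio. The simulated counts held no variation between cells, cultures or libraries, so they check the calculation and not the rate of false calls. Gene positions are from GENCODE 29. Alternatives were TMM factors (edgeR 4.0.16), median-of-ratios factors, totals without ribosomal protein and mitochondrial genes, equal weight per cell, thinning to 7500 UMIs, other minimums and leaving out cells or clusters. R 4.3.3, Python 3.11.15, pandas 2.3.3, numpy 2.4.6, matplotlib 3.10.9 and scipy 1.17.1 were used.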

Additional observations from a re-analysis of the deposited data

How the results depend on the processing

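The direction of the median over the measured genes and the call of 1 higher gene, LGMN, held under the 11 alternatives run. The count of lower genes, 10, was 6 at a minimum of 20 CPM, 7 under TMM scaling, 6 under median-of-ratios scaling, and 10 to 12 under the others. The median log2 ratio, -0.37, was -0.31 at 20 CPM, -0.22 under TMM scaling and -0.18 under median-of-ratios scaling. Those 2 scalings moved the median of all genes from -0.10 to 0.06 and 0.09, a shift of the whole scale by construction, and the higher and lower genes of all measured genes from 923 and 1551 to 1291 and 1063 and to 1416 and 973. CTSC, CTSK, CTSL, LIPA, SGSH and MITF stayed at least 1.5-fold lower in each alternative that gave them a value. CTSD, CTSF, CTSO, GLA, IDUA, PPT1 and SMPD1 crossed 1.5-fold in at least 1, and ATP6AP1, ATP6V1H, GLB1, MCOLN1 and SCARB2 changed sign. The median of sulfatases, -0.03, became 0.12 and 0.16 under these scalings. Depth limits values in cluster 1 of the TGFB1 library, where the 56 cells gave 51 MITF UMIs, and for TFEB throughout.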
